A study of Arabidopsis thaliana with 6 samples.

Results

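Glutathione S-transferases (GSTs) of the tau and phi classes were followed across 6 RNA-seq libraries of etiolated Arabidopsis thaliana seedlings. The genes were chosen by their names in the family, GSTU1 to GSTU28 for tau and GSTF2 to GSTF14 for phi, which gave 28 tau and 13 phi loci, 41 of the 26185 loci with at least 1 read. Values are uniquely mapped reads per gene, given as CPM (counts per 1000000 reads of the library), and a locus that a library did not list was taken as 0.

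The first group, Col_Kyn, was the Col-0 wild type on MS medium with kynurenine, an inhibitor of the TAA1/TAR tryptophan aminotransferases of auxin synthesis, at 25 mM as the labels write it (the unit could not be checked from the files). The second, wei8tar2_MS, was a line homozygous for wei8, an allele of TAA1, and heterozygous for tar2, grown on plain MS. How seedlings were taken from that line is not stated. Col_MS, Col-0 on plain MS, was the wild-type control of both. Each group had 2 biological repeats of 3-day-old seedlings grown in darkness at 22 °C after 3 days at 4 °C and a short exposure to light.

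GSTs join the tripeptide glutathione to reactive, electron-poor molecules, and the conjugates are then pumped into the vacuole by ABCC transporters. The tau and phi classes are the large plant GST classes, known for herbicide detoxification, and many of their genes are switched on by safeners, hydrogen peroxide, salicylate, wounding or microbes. Some members bind or carry plant metabolites, among them indoles, the defence compound camalexin and anthocyanins.

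Col_Kyn had 31817638 and 18143395 reads, wei8tar2_MS 26943103 and 25129503, and Col_MS 26753309 and 28243135, so that a count of 0 allows up to 3 reads, or 0.0943 to 0.165 CPM by library (counting error only). TAA1, the gene of the wei8 allele, had 37.7 and 40.0 CPM in Col_Kyn, 7.98 and 8.44 CPM in wei8tar2_MS, and 38.9 and 39.0 CPM in Col_MS. TAR2, the gene of the tar2 allele that the labels give as heterozygous, had 6.95 and 6.06 CPM in Col_Kyn, 2.93 and 2.03 CPM in wei8tar2_MS, and 10.4 and 8.18 CPM in Col_MS. Both fell in wei8tar2_MS, with log2 fold changes of -2.24 ± 0.11 for TAA1 and -1.88 ± 0.23 for TAR2 (SE; edgeR adjusted p = 0.000562 and 0.0301). The summed CPM of 3 etiolation markers was 1861 to 2319 in Col_Kyn, 1955 to 1969 in wei8tar2_MS and 2281 to 2312 in Col_MS, but the 4 light-grown leaf markers were also read, at 4321 to 9532, 7227 to 7355 and 5923 to 6402 CPM in the same order. Fewer cells of a type and less RNA per cell cannot be told apart in RNA of whole seedlings. Replicate 1 of Col_MS stood apart from the other 5 libraries in many of the genes below, and results that rest on it are given with and without it.

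The 250 bases before the gene start are shown for 4 members that were at least 2-fold higher in Col_MS replicate 1 than in every other library, because they belong to the set that parts from the rest of the family in that library. The windows are from the TAIR10.1 RefSeq sequence, read 5′ to 3′ on the gene's strand, and end at the base before the annotated start. Capitals mark the pentamers TTGAC, the core that WRKY factors recognise, and TGACG, the core that TGA factors recognise, found on either strand. The windows lie on the minus strand, at chr1:659981-660230 for GSTF7, chr2:852322-852571 for GSTF3, chr1:26335631-26335880 for GSTU12 and chr1:26338819-26339068 for GSTU11.
GSTF7: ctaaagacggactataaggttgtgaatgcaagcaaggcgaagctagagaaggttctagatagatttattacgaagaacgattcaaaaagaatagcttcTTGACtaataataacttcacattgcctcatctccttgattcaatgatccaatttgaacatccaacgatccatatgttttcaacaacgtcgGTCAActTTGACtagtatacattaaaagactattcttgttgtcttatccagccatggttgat
GSTF3: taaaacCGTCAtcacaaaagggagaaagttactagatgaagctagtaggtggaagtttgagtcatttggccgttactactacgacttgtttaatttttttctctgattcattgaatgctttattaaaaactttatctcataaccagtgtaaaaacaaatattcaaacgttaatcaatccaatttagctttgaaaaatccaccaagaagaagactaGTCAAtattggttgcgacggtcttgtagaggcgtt
GSTU12: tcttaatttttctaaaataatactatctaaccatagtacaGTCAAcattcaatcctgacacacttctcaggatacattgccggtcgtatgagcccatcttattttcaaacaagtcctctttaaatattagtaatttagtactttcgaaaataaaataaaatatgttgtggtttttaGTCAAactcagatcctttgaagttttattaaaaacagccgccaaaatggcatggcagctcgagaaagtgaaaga
GSTU11: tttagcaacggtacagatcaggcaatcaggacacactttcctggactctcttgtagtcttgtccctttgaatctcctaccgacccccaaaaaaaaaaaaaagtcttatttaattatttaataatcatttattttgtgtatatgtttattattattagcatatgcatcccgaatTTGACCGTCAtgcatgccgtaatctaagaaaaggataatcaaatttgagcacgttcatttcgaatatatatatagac

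TTGAC was found in the windows of 5 of the 5 members of that set that were searched, GSTU10 being the other, and of 23 of the 40 members searched (57.5%), against 44.9% of 27436 windows of protein-coding genes. More than 1 copy was found in 2 of the 5 (GSTF7 and GSTU12) and in 14.1% of all windows. TGACG was found in 2 of the 5, in 14 of 40 members (35%) and in 18.6% of all windows, and the longer TGACGT, which contains it, in 7 of 40 members (17.5%), in 0 of the 5 and in 7.69% of all windows. TTGACG, which contains both pentamers, was found in 1 member and in 7.19% of all windows. GCCGCC was also searched but is not marked in the windows. It was found in 2 of the 5, in 3 of 40 members (7.5%) and in 1.87% of all windows. These are letter matches on both strands and say nothing of which factor, if any, binds there.

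As a family, the 41 genes took a similar share of the reads in 5 of the 6 libraries. Their summed level was 3474 and 2934 CPM in Col_Kyn, 3081 and 3213 CPM in wei8tar2_MS, and 5338 and 3024 CPM in Col_MS. The tau genes summed to 857 and 814 CPM in Col_Kyn, 897 and 905 CPM in wei8tar2_MS, and 870 and 830 CPM in Col_MS. The phi genes summed to 2617 and 2120, 2184 and 2308, and 4468 and 2193 CPM in the same order. The tau sum thus differed little between all libraries, whereas the phi sum was high in Col_MS replicate 1 alone. Without GSTF2, GSTF3, GSTF6 and GSTF7, which were picked after their values were seen, the family summed to 2626 and 2163 CPM in Col_Kyn, 2320 and 2411 CPM in wei8tar2_MS, and 2672 and 2361 CPM in Col_MS.

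All 41 members had a read in some library, 33 had reads in all 6 libraries, and 33 (23 tau and 10 phi) reached 1 CPM in at least 1 library. Per kilobase, as RPKM (CPM per kilobase of listed gene length, mean of 6 libraries), the phi genes GSTF2 at 623, GSTF10 at 533 and GSTF9 at 522 stood highest. GSTF2 is known to bind indoles and camalexin. It overlaps a gene on the opposite strand, described below, and the part of that gene's reads in its level was not tested. The most abundant tau gene was GSTU19 at 211 RPKM, a detoxifying enzyme induced by herbicide safeners, followed at 81.1 RPKM by GSTU13. GSTF8, long studied for its stress-inducible promoter, stood at 72.7 RPKM, but its listed length of 3137 bases is far above that of other members and lowers this value.

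The 8 members that stayed under 1 CPM in every library were GSTU3, GSTU14, GSTU15, GSTU21, GSTU23, GSTF5, GSTF11 and GSTF13, and the highest value among them was 0.956 CPM. GSTU15 was close to silent, with 1 read in Col_Kyn replicate 1, 1 read in Col_MS replicate 2 and none elsewhere. GSTF14 had 42 reads (1.32 CPM) in Col_Kyn replicate 1 but at most 5 in any other library. GSTF13 was read in wild-type seedlings on plain MS alone, with 0 reads in both Col_Kyn and both wei8tar2_MS libraries against 15 and 18 reads (0.561 and 0.637 CPM) in Col_MS. With 3 reads per library as the floor, GSTF13 was at least 4.61-fold lower in Col_Kyn and at least 5.19-fold lower in wei8tar2_MS than in Col_MS. edgeR's quasi-likelihood test, with Benjamini-Hochberg adjustment over 21326 genes, gave adjusted p-values of 0.108 and 0.0699, and GSTF13 passed the filter on low counts only through its Col_MS reads. DESeq2 gave it an adjusted p of 0.0296 in wei8tar2_MS and none in Col_Kyn.

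**Figure D1:**
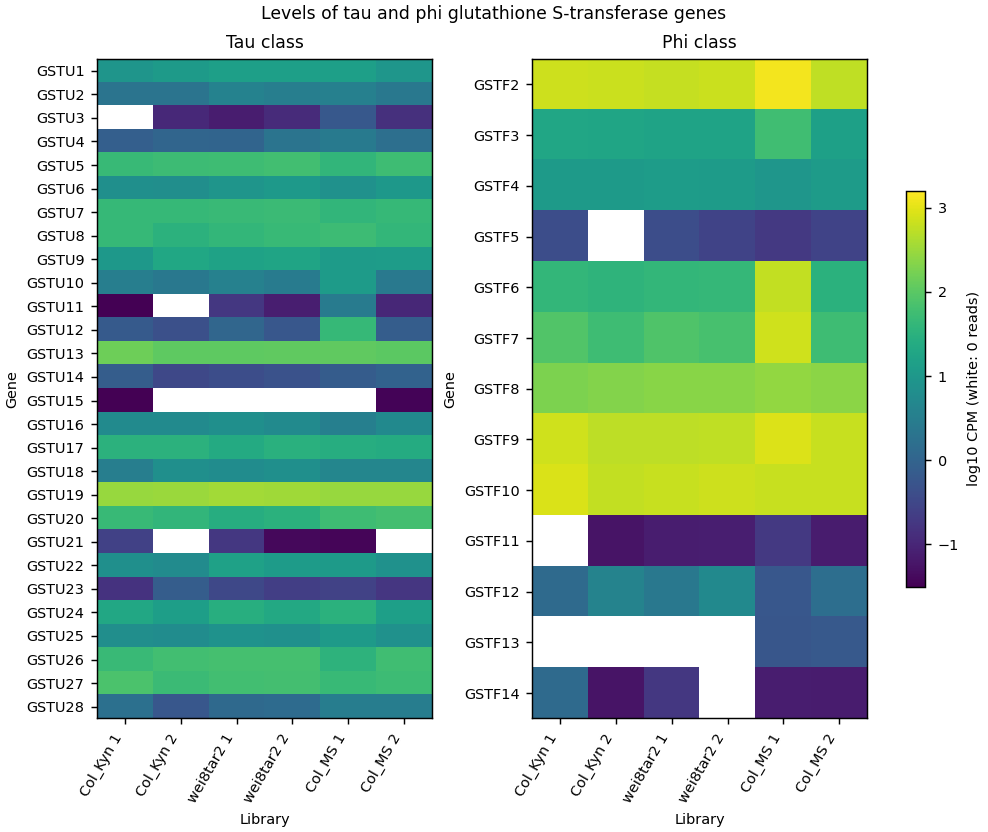
Level of every tau member (left) and phi member (right) in each library as log10 CPM, by colour, with 0 reads in white and libraries ordered Col_Kyn, wei8tar2_MS, Col_MS. Most rows hold 1 colour across the 6 libraries, while GSTF6, GSTF7 and GSTU12 are bright in Col_MS replicate 1 alone and GSTF13 is white outside Col_MS.

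Many members sit in tandem arrays, here members of a chromosome less than 20 kb apart: 29 of the 41 lie in 9 such clusters and 12 stand alone. Neighbours did not always share a level. GSTF9 and GSTF10, side by side on chromosome 2, had close means of 522 and 533 RPKM, but other arrays held wide differences. In the 20.6 kb array from GSTU23 to GSTU19 on chromosome 1 (29467412 to 29488007), GSTU19 had a mean of 211 RPKM, GSTU20 42.5, GSTU22 10.2, and GSTU21 0.0956 RPKM. The 14.6 kb array of GSTU1 to GSTU7 on chromosome 2 (12617936 to 12632538) held GSTU5 at 49.0 RPKM and GSTU3 at 0.18 RPKM.

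In Col_MS replicate 1, 6 members were at least 2-fold above each of the other 5 libraries, and none was so in Col_MS replicate 2. Among all 20252 genes that reached 1 CPM, 1.13% were high in Col_MS replicate 1 alone and 0.0543% in Col_MS replicate 2 alone. The 6 were the phi genes GSTF3, GSTF6 and GSTF7 and the tau genes GSTU10, GSTU11 and GSTU12. Since the choice used these levels, they and their fold changes are described without a test.

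GSTF6 (AT1G02930, chromosome 1, 661088 to 662475, minus strand, protein coding), which has been implicated in the glutathione step of camalexin synthesis, had 41.3 and 36.3 CPM in Col_Kyn, 41.2 and 42.6 CPM in wei8tar2_MS, and 578 and 31.1 CPM in Col_MS. GSTF7 (AT1G02920, chromosome 1, 658578 to 659980, minus strand), its neighbour, had 83.0 and 55.1 CPM in Col_Kyn, 82.1 and 67.7 CPM in wei8tar2_MS, and 737 and 55.7 CPM in Col_MS. Col_MS replicate 1 thus exceeded replicate 2 by 18.6-fold for GSTF6 and 13.2-fold for GSTF7, and the other 5 libraries lay close together for both. The 2 coding sequences are 94.3% identical, with an identical run of 116 bases. As only uniquely mapped reads were counted, reads that fit both genes equally would be left out. How far this changed each count is uncertain.

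The array that holds them (chromosome 1, 658578 to 666471) also holds GSTF5 and GSTF4, which did not share the pattern. GSTF4 had 11.7 and 11.6 CPM in Col_Kyn, 12.3 and 12 CPM in wei8tar2_MS, and 9.27 and 12 CPM in Col_MS, its lowest value being in Col_MS replicate 1. GSTF5 stayed at or under 0.409 CPM in all 6 libraries. GSTF4 overlaps a gene on the opposite strand by 1014 bases, and these libraries carry no known strand mark.

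GSTF3 (AT2G02930, chromosome 2, 851156 to 852321, minus strand) had 18.9 and 18.2 CPM in Col_Kyn, 17.1 and 16.9 CPM in wei8tar2_MS, and 58.4 and 14.7 CPM in Col_MS. Its coding sequence is 94.5% identical to that of GSTF2 on chromosome 4, so that the same uncertainty holds for this pair. GSTF2 (1110343 to 1112033, minus strand) had 705 and 661 CPM in Col_Kyn, 621 and 674 CPM in wei8tar2_MS, and 1292 and 561 CPM in Col_MS. Its Col_MS replicate 1 value was also its highest, but at 1.83-fold over the next library it lay outside the 2-fold limit, and the nearest member inside was GSTF3 at 3.10-fold. GSTF2 also overlaps AT4G02510 on the opposite strand by 1442 bases. That gene had 54875 reads in all against 118529 for GSTF2, and the part of these reads was not tested.

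Of the tau genes, GSTU12 (AT1G69920, chromosome 1, 26334250 to 26335630, minus strand) had 0.691 and 0.441 CPM in Col_Kyn, 1.11 and 0.597 CPM in wei8tar2_MS, and 44.9 and 0.779 CPM in Col_MS. Its neighbour GSTU11 (AT1G69930, 26337481 to 26338818) had 1 and 0 reads in Col_Kyn, 5 and 2 reads in wei8tar2_MS, and 77 and 3 reads in Col_MS. Both genes of this pair were thus weakly read in 5 libraries and far higher in 1, with a 57.6-fold difference between the Col_MS libraries for GSTU12. GSTU10 (AT1G74590, chromosome 1, 28023627 to 28024860) had 3.30 and 2.43 CPM in Col_Kyn, 3.67 and 2.90 CPM in wei8tar2_MS, and 12 and 2.51 CPM in Col_MS. GSTU10 overlaps AT1G74580 on the opposite strand by 279 bases. GSTU3, with 17 reads in Col_MS replicate 1 and 4 or fewer in the others, would join the set with a lower limit of 0.3 CPM.

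**Figure D2:**
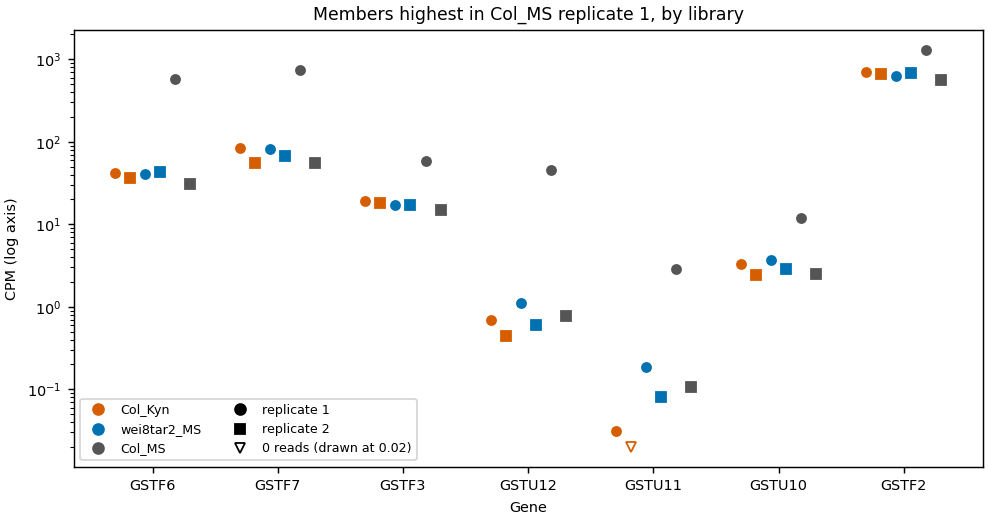
CPM on a log axis of the 6 members high in Col_MS replicate 1 alone, and of GSTF2 beside them, with Col_Kyn left, wei8tar2_MS in the middle and Col_MS right for each gene (circle: replicate 1, square: replicate 2, open triangle: 0 reads). For each of the 6, the Col_MS replicate 1 point is at least 2-fold above the other 5, and for GSTF2 it is 1.83-fold above the next.

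Other gene lists moved with the same library. Of 9 genes of camalexin and inducible indolic defence, 8 were high in Col_MS replicate 1 alone, with a median log2 ratio of replicate 1 over replicate 2 of 4.73 over its genes that reached 1 CPM, where the median over all such genes was 0.03. Their summed level was 122 to 160 CPM in Col_Kyn, 104 to 113 CPM in wei8tar2_MS and 157 to 775 CPM in Col_MS. PAD3, the last enzyme of camalexin synthesis, had 1.35 and 1.71 CPM in Col_Kyn, 1.97 and 2.51 CPM in wei8tar2_MS, and 64.2 and 1.24 CPM in Col_MS. CYP71A12, an enzyme of indolic defence, had 97.5 CPM in Col_MS replicate 1 and 0.354 CPM in Col_MS replicate 2. These defence genes and the 6 GST genes were thus high in the same 1 library, and a link between them was not tested.

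The lists closer to GST chemistry moved less between the Col_MS libraries than the camalexin list. The median ratios of all lists are over genes that reached 1 CPM. Of the 41 tau and phi genes, 6 were high in Col_MS replicate 1 alone. Over the 33 that reached 1 CPM, the median log2 ratio was itself only 0.13. None of 12 genes of the other GST classes was high in Col_MS replicate 1 alone, and their median log2 ratio of replicate 1 over replicate 2 was -0.11. Of 17 xenobiotic response enzymes and transporters, 3 were high in that library alone and the median ratio was 0.42. For glutathione synthesis and turnover, ABCC transporters, and TGA and NAC regulators, 0 genes of each list were, and the medians were 0.23, 0.28 and 0.37. FRK1, a receptor kinase gene induced by microbial patterns, was the 1 high in that library among the 7 pathogen and salicylate genes with a read, of 10 in the list, at 3.48 CPM against 0.177 CPM in Col_MS replicate 2.

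Seed storage and reserve markers also ran higher in Col_MS replicate 1, with a median log2 ratio of 1.92 and 3 of 11 high there alone. Their summed level was 4.52 to 32.2 CPM in Col_Kyn, 29.9 to 49.5 CPM in wei8tar2_MS and 21.7 to 93.5 CPM in Col_MS. Heat shock genes had a median of 1.15, with 1 of 8 high in that library alone, while root hair and flavonoid genes both had a median of -0.77. Whether what these lists mark has a part in the GST pattern was not tested.

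**Figure D3:**
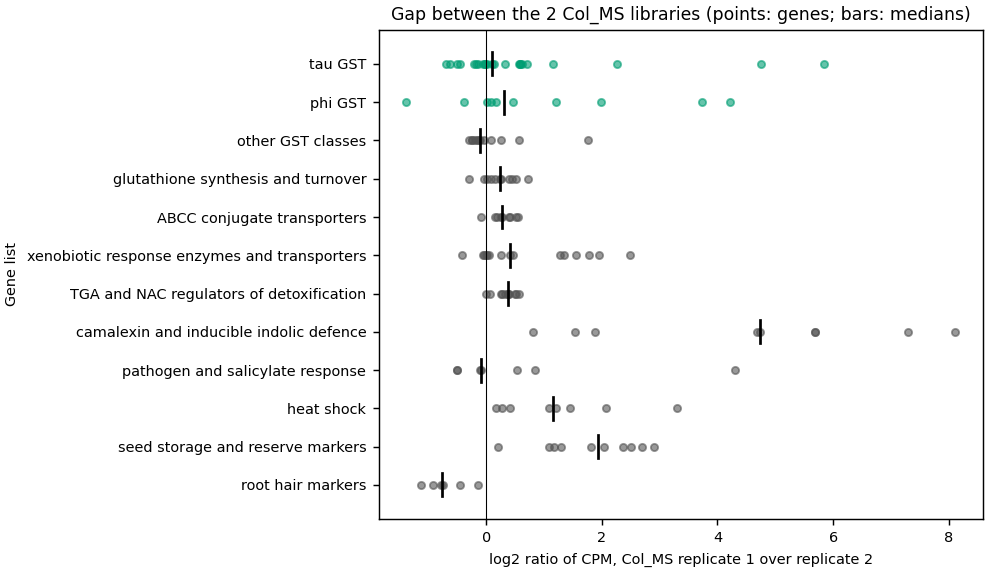
Log2 ratio of CPM of Col_MS replicate 1 over Col_MS replicate 2 by gene list, with counts under 3 reads taken as 3. Each point is a gene that reached 1 CPM in at least 1 library, and the bar is the list's median. The camalexin and inducible indolic defence list sits highest, with a median of 4.73, and the medians of the tau and phi GST genes are 0.10 and 0.31.

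The first comparison asks which GST genes differ between wild-type seedlings with and without kynurenine. Of 34 members tested in Col_Kyn against Col_MS, 0 passed edgeR's quasi-likelihood test at an adjusted p of 0.05, where 0.366% of 21326 genes did. DESeq2 gave an adjusted p to 36 members and called 1, GSTU11, which is not among those 34. GSTU11 was lower in Col_Kyn and rests on the 77 reads of Col_MS replicate 1. Of all genes it tested, DESeq2 called 3.4%. At an unadjusted p under 0.05, edgeR held 11 members, 9 lower and 2 higher. That is 32.4% of the members tested, against 17% of all genes. Among the 11 were GSTU12, GSTF6 and GSTF7, chosen as high in Col_MS replicate 1, and GSTF13, which passed the filter through Col_MS alone. The share is thus a description and not a test of the family. The median log2 fold change of the members was -0.25, and that of all genes -0.02. Without Col_MS replicate 1 the members' median was 0.02.

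Libraries were called separated where both of one group lay at least 1.5-fold beyond both of the other, a description and not a test. By that rule 2 members were lower in Col_Kyn, GSTU4 and GSTU28, and 0 higher, against 2.21% and 0.825% of all genes. GSTU28 (AT1G53680, chromosome 1, 20038320 to 20039164, plus strand) had 1.73 and 0.606 CPM in Col_Kyn, 1.3 and 1.39 CPM in wei8tar2_MS, and 3.07 and 3.04 CPM in Col_MS. All 4 libraries with kynurenine or the wei8 and tar2 alleles lay below both wild-type controls, and the 2 controls were close together. The log2 fold change of GSTU28 was -1.25 ± 0.41 (SE) in Col_Kyn and -1.17 ± 0.41 in wei8tar2_MS, with edgeR adjusted p-values of 0.208 and 0.169. In Col_Kyn it was -2.25 without Col_Kyn replicate 1 and -0.77 without Col_Kyn replicate 2. Both comparisons share the Col_MS libraries. At 11 to 86 reads per library, GSTU28 is a weakly read gene.

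GSTU4 (AT2G29460, chromosome 2, 12626478 to 12627891, minus strand) had 0.849 and 1.1 CPM in Col_Kyn, 1.04 and 2.07 CPM in wei8tar2_MS, and 2.73 and 1.66 CPM in Col_MS. The nearest libraries of Col_Kyn and Col_MS were 1.51-fold apart, just inside the limit, and those of wei8tar2_MS and Col_MS overlapped. GSTU20, at 1.18-fold between its nearest libraries, was the next member below Col_MS among those reaching 1 CPM. The log2 fold change of GSTU4 in Col_Kyn was -1.12 ± 0.44 (edgeR adjusted p = 0.26). It was -0.74 without Col_MS replicate 1 and -1.41 without Col_MS replicate 2. With CPM scaled by TMM factors GSTU4 left the separated set, and GSTF14 entered it on the floor of 3 reads.

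In the second comparison, wei8tar2_MS against Col_MS, 1 of 34 members passed edgeR's test, GSTU20, which was lower, where 1.08% of all genes were called and 0.516% were called lower. Of 38 members with an adjusted p in DESeq2, it called GSTU20 and GSTF13, both lower, against 5.93% of all genes. At an unadjusted p under 0.05, edgeR held 9 members, 26.5% of those tested against 20.6% of all genes. GSTU12, GSTF6, GSTF7 and GSTF13 were again among them, so that this share too is a description. The median log2 fold change was 0.08 for the members and -0.02 for all genes. The members' median was 0.16 without Col_MS replicate 1.

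GSTU20 (AT1G78370, chromosome 1, 29484120 to 29485389, minus strand) encodes a GST that binds FIN219/JAR1, the enzyme that makes jasmonoyl-isoleucine. It had 26.4 and 31.3 CPM in wei8tar2_MS, 47.0 and 39.1 CPM in Col_Kyn, and 55.4 and 61.4 CPM in Col_MS. GSTU20 fell in wei8tar2_MS, with a log2 fold change of -1.01 ± 0.14 (SE; edgeR adjusted p = 0.0405, lower in 2 of 2 libraries). In Col_Kyn its log2 fold change was -0.37 ± 0.13 (edgeR adjusted p = 0.233), with both libraries again under both controls. The 3 groups did not overlap, and wei8tar2_MS was under Col_Kyn by -0.63 ± 0.14 on the log2 scale, which did not pass (edgeR adjusted p = 0.567). The call in wei8tar2_MS was lost without Col_MS replicate 1 (adjusted p = 0.0571), without wei8tar2_MS replicate 1 (0.458) and without wei8tar2_MS replicate 2 (0.312), while the log2 fold change stayed between -1.13 and -0.89 in those 3 fits.

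In the array of GSTU20, GSTU19 and GSTU22 were tested and not called, while GSTU21 and GSTU23 did not pass the filter. GSTU19 had 352 and 338 CPM in wei8tar2_MS against 294 and 304 CPM in Col_MS, a log2 fold change of 0.22 ± 0.11 (edgeR adjusted p = 0.309). GSTU22 had 15.6 and 12.1 CPM in wei8tar2_MS, 7.04 and 5.84 CPM in Col_Kyn, and 11.6 and 7.51 CPM in Col_MS. Genes of aliphatic glucosinolate synthesis, with which GSTU20 is known to be co-expressed, had median log2 fold changes of -0.18 in wei8tar2_MS and -0.89 in Col_Kyn, and edgeR called 0 of 11 tested in either comparison (1 and 3 at an unadjusted p under 0.05, and 0 and 0 by DESeq2).

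GSTF12 (AT5G17220, chromosome 5, 5658416 to 5659661, plus strand), also known as TT19, is needed for anthocyanins and tannin precursors to reach the vacuole. It had 2.38 and 5.41 CPM in wei8tar2_MS, 1.35 and 4.08 CPM in Col_Kyn, and 0.598 and 1.56 CPM in Col_MS. Both wei8tar2_MS libraries were above both controls, by 1.52-fold between the nearest, and Col_Kyn overlapped with Col_MS. The log2 fold change was 1.84 ± 0.67 in wei8tar2_MS and 1.33 ± 0.69 in Col_Kyn, with edgeR adjusted p-values of 0.182 and 0.371. Leaving out 1 library moved it between 1.14 (without wei8tar2_MS replicate 2) and 2.74 (without Col_MS replicate 2) in wei8tar2_MS, and it was 1.31 without Col_MS replicate 1. In Col_Kyn it moved between 0.36 (without Col_Kyn replicate 2) and 2.20 (without Col_MS replicate 2), and was 0.78 without Col_MS replicate 1. GSTF12 overlaps AT5G17230 on the opposite strand by 108 bases, a gene with 13847 reads in all against 377 for GSTF12, and the part of these reads was not tested.

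The flavonoid list holds regulators and pathway genes, some of which make the pigments that GSTF12 carries. Its median log2 fold changes were 0.74 in wei8tar2_MS and 0.69 in Col_Kyn, and edgeR called 0 of 9 tested in either comparison (4 and 4 at an unadjusted p under 0.05, and 1 and 3 by DESeq2). The list's median log2 ratio of Col_MS replicate 1 over replicate 2 was -0.77, and its medians without replicate 1 were not computed. LDOX, the anthocyanidin synthase, had 3.90 and 6.17 CPM in wei8tar2_MS, 2.55 and 6.50 CPM in Col_Kyn, and 0.635 and 2.87 CPM in Col_MS. As for GSTF12, Col_MS replicate 1 was the lowest of all 6 libraries.

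By the separation rule 1 member was thus higher in wei8tar2_MS, GSTF12, and 2 were lower, GSTU20 and GSTU28, against 2.51% and 2.59% of all genes. GSTU18, at 1.34-fold between its nearest libraries, was the next member just outside. GSTU14 was 1.57-fold lower between the nearest libraries, with 11 and 12 reads in wei8tar2_MS against 20 and 27 in Col_MS, and was left out for being under 1 CPM.

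**Figure D4:**
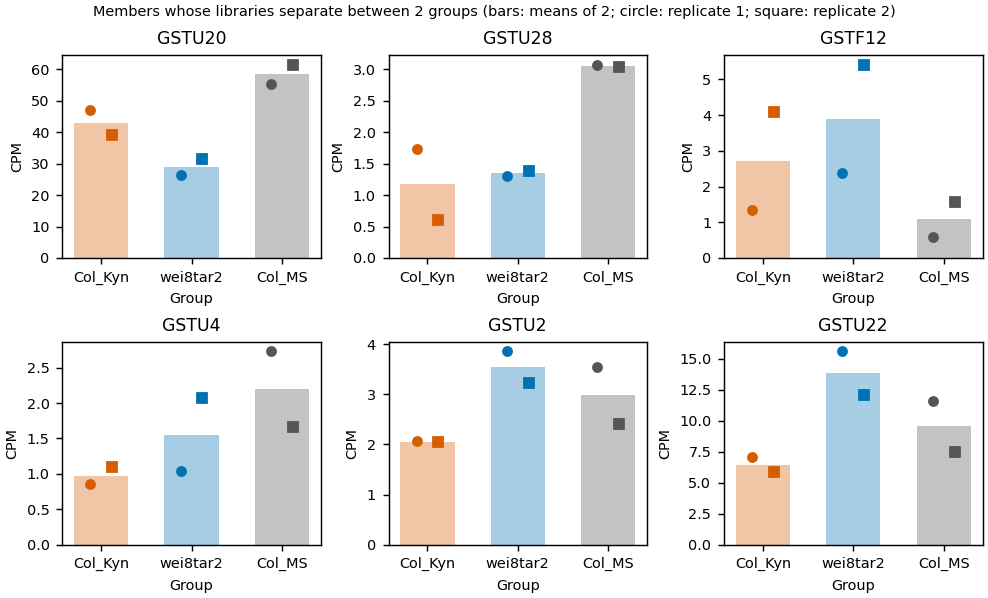
CPM of the members whose libraries separated between 2 groups, with Col_Kyn left, wei8tar2_MS in the middle and Col_MS right (bar: mean of 2 libraries, circle: replicate 1, square: replicate 2). GSTU28 is lower in both conditions than in Col_MS, GSTU20 lower and GSTF12 higher in wei8tar2_MS, and GSTU4 lower in Col_Kyn, while GSTU2 and GSTU22 separate between wei8tar2_MS and Col_Kyn.

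The 2 conditions were also set against each other. In wei8tar2_MS against Col_Kyn, 0 of 34 members passed edgeR's test, where 0.0281% of all genes did. DESeq2 called 0 of 40 members with an adjusted p and 0.233% of all genes. At an unadjusted p under 0.05, edgeR held 4 members (11.8%, against 4.32% of all genes), GSTU2, GSTU6 and GSTU22 higher and GSTU20 lower. GSTU22 was 1.72-fold apart between the nearest libraries, with a log2 fold change of 1.04 ± 0.23 (edgeR adjusted p = 0.633). GSTU2, with 3.86 and 3.22 CPM in wei8tar2_MS, 2.07 and 2.04 CPM in Col_Kyn, and 3.55 and 2.41 CPM in Col_MS, was 1.55-fold apart between the nearest wei8tar2_MS and Col_Kyn libraries (log2 fold change 0.73 ± 0.26, edgeR adjusted p = 1). No member was separated in the lower direction. These shares among all genes were 1.2% for higher and 0.43% for lower.

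Of the 6 members of the Col_MS replicate 1 set, GSTU11 did not pass the filter, and the fitted log2 fold changes of the other 5 turned on that library. With all libraries, GSTF6 had -2.89 in Col_Kyn and -2.84 in wei8tar2_MS, GSTF7 had -2.44 and -2.38, and GSTU12 had -5.18 and -4.70. GSTF3 had -0.91 and -1.08, and GSTU10 had -1.25 and -1.12. Without Col_MS replicate 1, GSTF6 had 0.37 in Col_Kyn and 0.43 in wei8tar2_MS, GSTF7 had 0.36 and 0.43, GSTF3 had 0.38 and 0.21, and GSTU10 had 0.26 and 0.39, so that the sign was the opposite one. GSTU12 kept its sign in Col_Kyn (-0.36) and changed it in wei8tar2_MS (0.14).

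The number of members called turned on the same libraries. Without Col_MS replicate 2, when Col_MS replicate 1 was the only control, edgeR called 8 members in Col_Kyn (7 lower, 1 higher) and 10 in wei8tar2_MS (8 lower, 2 higher). These counts hold the 6 members chosen as high in that library, so that they are a description, and GSTU11 passed the filter through that library alone. It then called 1080 and 1719 of all 21759 genes. Without Col_MS replicate 1 it called 0 members in either comparison, and 42 and 52 of 21658 genes.

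**Figure D5:**
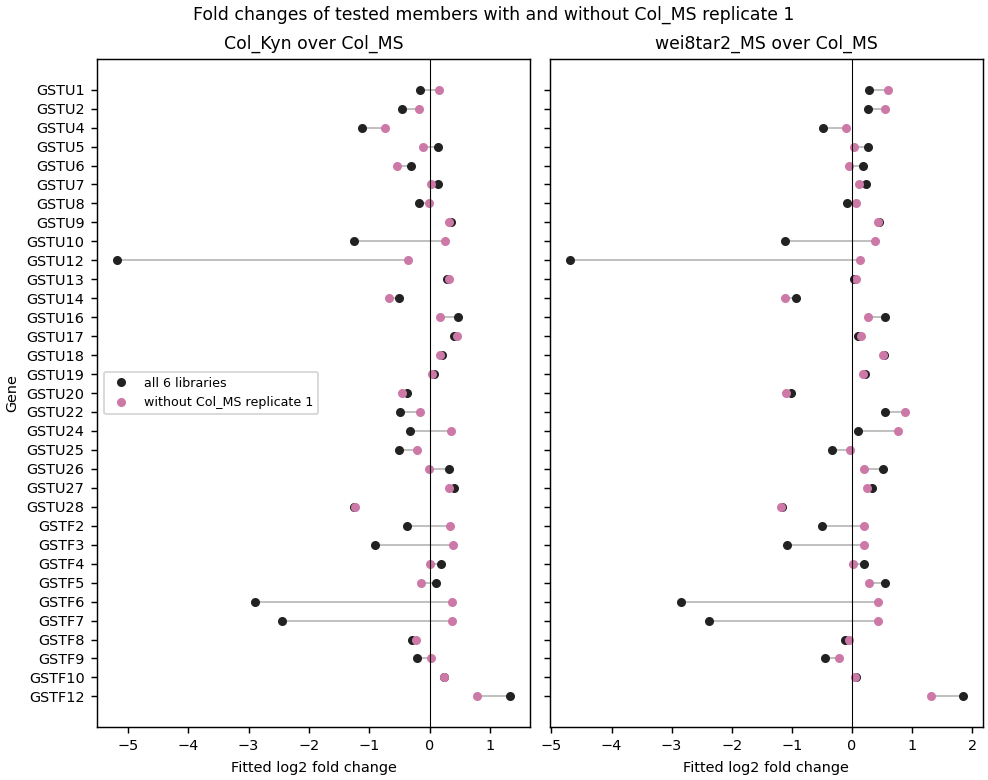
Fitted log2 fold change of each tested member, GSTF13 left out, in Col_Kyn over Col_MS (left) and wei8tar2_MS over Col_MS (right), from all 6 libraries (black) and without Col_MS replicate 1 (pink), joined by a line. GSTU20 and GSTU28 hardly moved between these 2 fits, while GSTF6 moved to 0.37 without that library, against -2.89 with it, in Col_Kyn.

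Leaving out GSTF13, 1 of 33 tested members was past 2-fold in Col_Kyn and 4 were in wei8tar2_MS once Col_MS replicate 1 was left out, against 5.11% and 5.84% of all genes in those fits: GSTU28 in Col_Kyn, and GSTU14, GSTU20, GSTU28 and GSTF12 in wei8tar2_MS. GSTU17, known as ERD9 from early drought response, had 32.5 and 32.8 CPM in Col_Kyn, 24.1 and 30.9 CPM in wei8tar2_MS, and 27.1 and 24.8 CPM in Col_MS, a log2 fold change of 0.40 ± 0.14 in Col_Kyn (edgeR adjusted p = 0.217). GSTF8 had 185 and 211 CPM in Col_Kyn, 233 and 231 CPM in wei8tar2_MS, and 269 and 240 CPM in Col_MS, a log2 fold change of -0.29 ± 0.12 in Col_Kyn (edgeR adjusted p = 0.283). GSTU24 and GSTU25, enzymes that can conjugate the explosive TNT, lie side by side with GSTU26 and were not separated in either comparison.

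Among the other genes of glutathione and detoxification, 1 was called. GGCT2;1, a gamma-glutamyl cyclotransferase that breaks down glutathione, had 2.45 and 2.39 CPM in wei8tar2_MS, 1.35 and 1.49 CPM in Col_Kyn, and 0.673 and 0.496 CPM in Col_MS. It rose in wei8tar2_MS, with a log2 fold change of 2.06 ± 0.31 (edgeR adjusted p = 0.0419), as 1 of 11 tested genes of glutathione synthesis and turnover. Fits with a library left out are not given for GGCT2;1, so how far its call rests on 1 library is not shown. Of the other GST classes, ABCC transporters, xenobiotic response genes, and TGA and NAC regulators, 48 genes were tested, and edgeR called 0 in Col_Kyn and 0 in wei8tar2_MS against Col_MS. At an unadjusted p under 0.05 edgeR held 5 and 7 of them, and DESeq2 called 3 and 2.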

How the data were processed

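RNA was sequenced from 6 libraries of etiolated seedlings, 2 per group, with groups taken from the labels. Per the submitters' processing notes, alignment was by TopHat 1.3.0 and the build TAIR10. The counting program, its use of strand and its gene models were not given in the sources used here. Each deposited table gives raw counts of uniquely mapped reads per gene and, computed by the authors, RPKM from those counts and a listed length. RPKM recomputed here differed by a relative 8.48e-14 at most. The listed length was a median of 0.95 of the gene span in TAIR10.1, introns included. All tests used the deposited counts, and RPKM served to rank genes.

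The fit was made with edgeR 4.0.16 in R 4.3.3 (TMM, filterByExpr, quasi-likelihood test, 1 coefficient per group, 21326 genes, Benjamini-Hochberg adjustment over all of them, called under 0.05). Standard errors were derived from the log2 fold change and its F statistic, as the first over the root of the second. DESeq2 1.42.0 was an alternative, and the script was tested on simulated data. CPM is the count over the library total. Of the members, 34 passed the filter and 7 (GSTU3, GSTU11, GSTU15, GSTU21, GSTU23, GSTF11 and GSTF14) did not. Library totals of 18143395 to 31817638 reads limit what a low count can show. The labels call replicates biological repeats and give no shared day. Loci were matched to TAIR10.1 by locus name, 25911 of 26185, and no coordinates were converted.

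The members, the 16 gene lists (148 loci) and the tests were chosen with earlier results of these data known. Full values are given for members called, separated from Col_MS by 1.5-fold or high in 1 Col_MS library, and list genes could be named if called, mutated, or over 4-fold apart between the Col_MS libraries at 1 CPM or more. GSTU2, GSTU17, GSTU19, GSTU22, GSTF2, GSTF4, GSTF8 and other members outside that rule were named after their values were seen. Alternatives were another tool or normalization, no filter, a 4-library fit, a replicate block, each library left out, and other limits for the classes. The window before 1 member's start is not reported here.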

Additional observations from a re-analysis of the deposited data

How the results depend on the processing

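Of 33 log2 fold changes of the described members, each under 12 alternatives, 363 of 396 values kept direction and side of the threshold, 3 lost and 12 gained significance, and 18 changed sign, each of the 18 on leaving out 1 library. Members called in Col_Kyn numbered 1 with DESeq2 and 0 to 8 when a library was left out. In wei8tar2_MS they numbered 2 with DESeq2 (GSTU20 and GSTF13), 3 without the filter (GSTU12, GSTU20 and GSTF13), and 0 to 10 when a library was left out. With the replicate block, wei8tar2_MS had 2 (GSTU20, and GSTF12 at 1.89, edgeR adjusted p = 0.0299) and Col_Kyn 0, and the block gave 130, 367 and 12 calls over all genes, against 78, 230 and 6, in Col_Kyn, wei8tar2_MS and their comparison. Equal replicate numbers are not shown to pair the samples: their deviations correlated at 0.202 between Col_Kyn and Col_MS, 0.022 between wei8tar2_MS and Col_MS, and -0.039 between wei8tar2_MS and Col_Kyn. Separated members numbered 12 in Col_Kyn and 14 in wei8tar2_MS with any gap (45% and 56.2% of all genes), and 0 and 1 with a 2-fold gap (1.14% and 1.78%). A 3 CPM minimum left 1 in Col_Kyn (1.99%), and a 0.3 CPM minimum gave 5 in wei8tar2_MS (5.86%). Leaving out libraries in turn, log2 fold changes in Col_Kyn ranged from -1.95 to 0.26 for GSTU10, -1.56 to 0.38 for GSTF3, -3.80 to 0.37 for GSTF6 and -3.32 to 0.36 for GSTF7. In wei8tar2_MS they ranged from -1.81 to 0.39 for GSTU10, -5.64 to 0.14 for GSTU12, -1.73 to 0.21 for GSTF3, -3.73 to 0.43 for GSTF6 and -3.24 to 0.43 for GSTF7. In wei8tar2_MS over Col_Kyn they ranged from -0.22 to 1.49 for GSTF12, -0.0446 to 0.37 for GSTU10, -0.0335 to 0.89 for GSTU12, -0.39 to 1.08 for GSTU28, -0.0089 to 0.14 for GSTF6 and -0.18 to 0.38 for GSTF7. A group left with 1 library is assumed to vary like the others. The cause of each change was not tested, beyond that Col_MS replicate 1 holds the high values. The 8 members under 1 CPM rest on 27 reads or fewer in each library.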
